A study of Mus musculus with 6 samples.

Results

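Stefins and cystatins are small proteins that block cysteine proteases. The stefins stay inside the cell and lack a signal peptide, whereas the cystatins are secreted. Both wedge into the active site of papain-like proteases such as cathepsins B, H, L and S, and cystatin M/E (Cst6) also holds a separate site for legumain. In the epidermis stefin A is a component of the cornified envelope, and in humans loss of its gene CSTA causes a peeling form of ichthyosis. Loss of Cst6 in the mouse causes the ichq phenotype, a lethal disorder of cornification after birth.

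The 7 genes described here are the stefin A genes Stfa1, Stfa2, Stfa3 and Stfa2l1, stefin B (Cstb), cystatin C (Cst3) and Cst6, out of 30142 genes on the arrays. They were selected on the family they belong to, with earlier results of these data known. The probe set of each was the brightest by mean over the 6 arrays, of those with that gene as the only platform symbol. Of the 7 genes, 6 had 1 such probe set. Stfa3 had 2, with means of 11.15 and 7.78 on the log2 scale, and the first was used. The second carries the Entrez ID of a neighbouring gene, Cstdc5, and is described under that name. No probe set named a member together with another gene.

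RNA was measured in epidermal sheets of mouse embryos at E18.5, late gestation, when the cornified layer has formed. The 3 Rptor cKO sheets (arrays 1 to 3) came from embryos with a conditional knockout of Rptor, which encodes the Raptor subunit of mTORC1, and the 3 wild-type sheets (arrays 4 to 6) from littermates sorted by eye and then genotyped. The sheets were lifted off the dermis with ammonium thiocyanate. No label names the Cre line, and so the cells in which Rptor was deleted are unknown here. Values are log2 probe set values, every difference is Rptor cKO minus wild type, and SD and SE are on the same log2 scale. They allow a probe set to be compared between arrays, not the level of a gene with that of another.

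Rptor itself was lower on all 3 Rptor cKO arrays, but the difference of -0.46 (SE 0.15) did not pass the test (limma adjusted p = 0.099). By Xist and Y-linked genes Rptor cKO array 2 and the 3 wild-type arrays were male and Rptor cKO arrays 1 and 3 female. Sex is thus partly confounded with genotype. Of the 7 epidermal markers, the 5 of the upper layers were lower at a limma adjusted p under 0.05, as were 5.95% of all genes. The basal keratins Krt5 (0.035, SE 0.14) and Krt14 (0.26, SE 0.12) did not pass. Rptor cKO array 3 lay nearest to the wild type for Krt1, at 11.63 against 10.30 and 9.81 on Rptor cKO arrays 1 and 2.

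The sequences before the start of the stefin A genes are shown because these genes lie in a single cluster on chromosome 16 and were lower together. Each line gives the last 150 bases before the annotated start (RefSeq, GRCm38.p6), read 5′ to 3′ on the gene's own strand. Capitals mark runs of 10 or more bases that all 4 genes share within the 250 bases before their starts.
Stfa1: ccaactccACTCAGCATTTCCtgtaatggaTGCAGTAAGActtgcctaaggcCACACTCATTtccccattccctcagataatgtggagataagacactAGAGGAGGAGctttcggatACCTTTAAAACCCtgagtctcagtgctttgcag
Stfa2: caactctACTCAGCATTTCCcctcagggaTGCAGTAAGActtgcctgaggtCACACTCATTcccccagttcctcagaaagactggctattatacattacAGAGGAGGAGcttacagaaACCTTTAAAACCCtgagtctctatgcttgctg
Stfa3: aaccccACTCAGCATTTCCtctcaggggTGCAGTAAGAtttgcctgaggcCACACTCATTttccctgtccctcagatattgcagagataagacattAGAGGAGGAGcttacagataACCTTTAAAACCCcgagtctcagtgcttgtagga
Stfa2l1: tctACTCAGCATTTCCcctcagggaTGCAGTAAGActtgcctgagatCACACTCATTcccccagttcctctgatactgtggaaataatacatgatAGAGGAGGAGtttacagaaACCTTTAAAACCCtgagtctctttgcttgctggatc

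These windows are chr16:36276998-36277147 on the plus strand for Stfa1, chr16:36408364-36408513 on the minus strand for Stfa2, chr16:36455393-36455542 on the minus strand for Stfa3 and chr16:36156661-36156810 on the plus strand for Stfa2l1. Over 250 bases, Stfa2 and Stfa2l1 were the most alike of the 4 genes, with 89.4% of aligned positions identical. Stfa1 and Stfa3 shared 83.5%, and the other pairs 80.4% to 81.0%. Against the window of Cst3, which lies on chromosome 2, the 4 genes had 42.2% to 45.3%. Other genes of the cluster varied widely against the 4, with 37.7% to 41.5% for Csta1 and 70.1% to 81.2% for Cstdc5.

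The run nearest to the start, ACCTTTAAAACCC, began 32 to 36 bases before it. Searched on both strands, it occurred in 8 of 32851 promoters (0.0244%), and all 8 belonged to the cluster: the 4 stefin A genes, Csta3, Cstdc3, Cstdc4 and Gm7260. ACTCAGCATTTCC occurred in 9 promoters (0.0274%), again all of the cluster. A further shared run, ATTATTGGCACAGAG, lay 242 to 247 bases before the start and was found outside the 4 genes in Cstdc5 alone. The shorter runs were less particular, AGAGGAGGAG being found in 268 promoters (0.816%). None of the 4 windows held TATAAA, present in 12.4% of promoters, or TGANTCA, the AP-1 site, present in 6.75%. CACGTG, the core of the element that MiT/TFE factors bind, was in 6.02% of promoters and in none of these 4 windows or that of Cst3. These are matches of letters in a window and say nothing of binding. Promoters were matched for 5 of the 7 members. Those of Cstb, Cst6 and the cluster gene Cstdc6 were not matched.

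All 4 stefin A genes and Cst3 were lower in Rptor cKO epidermis, while Cstb and Cst6 did not pass the test. The falls ran from 1.82-fold for Cst3 to 6.97-fold for Stfa2l1. Of the 7 members 5 were called lower and none higher at a limma adjusted p under 0.05, where 9.58% of 30142 genes were called in either direction, 5.95% as lower and 3.63% as higher. The median difference was -1.23 over the members, against 0.05 over all genes. Since the members were chosen with earlier results of these data known, these contrasts with all genes are description and not a test. The same 5 members had groups that did not overlap, all lower in Rptor cKO, as had 29.0% of all genes in either direction and 12.5% as lower. In a linear model without variance moderation 0 members passed after adjustment, and 8 genes passed in all. At an unadjusted p under 0.05 that model had 5 of the 7 members and 5796 of the 30142 genes. In tissue, fewer cells of a type and less RNA per cell cannot be told apart.

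**Figure D1:**
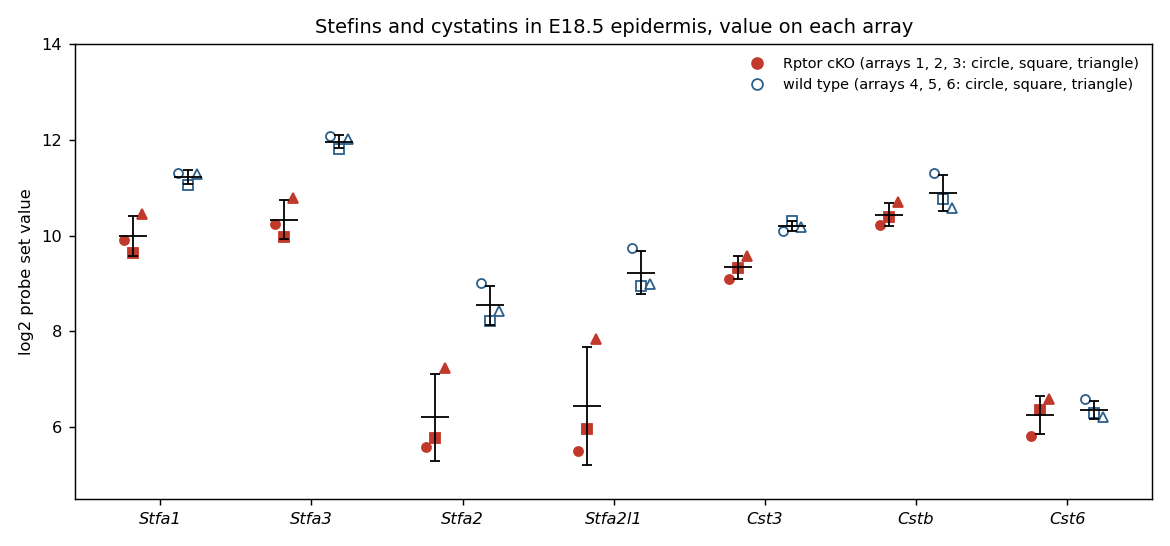
Log2 probe set value of each member on each array, Rptor cKO left of wild type, with the mean and SD of 3 arrays in black. The Rptor cKO arrays lie below all wild-type arrays for the 4 stefin A genes and Cst3, and overlap them for Cstb and Cst6.

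Stfa2l1 (chromosome 16, 36156811 to 36161948), a close relative of Stfa2, fell furthest. It read 5.51, 5.95 and 7.83 on Rptor cKO arrays 1 to 3, against 9.74, 8.95 and 8.99 on wild-type arrays 4 to 6. Rptor cKO array 3 stood well above the other Rptor cKO arrays yet 1.12 below the lowest wild-type array. The difference was -2.80 (SE 0.53, limma adjusted p = 0.0154), a 6.97-fold fall, and 0.129% of all genes had a difference as low or lower.

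Stfa2 (36403946 to 36408363 on the same chromosome) encodes stefin A2, an inhibitor of papain-like cathepsins. It read 5.59, 5.78 and 7.24 on Rptor cKO arrays 1 to 3, against 9.0, 8.21 and 8.42 on wild-type arrays 4 to 6. As with Stfa2l1, array 3 was the highest of the Rptor cKO arrays and array 4 the highest of the wild type. The difference was -2.34 (SE 0.41, adjusted p = 0.0111), a 5.05-fold fall.

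Without Rptor cKO array 2, only female Rptor cKO arrays are set against only male wild-type arrays. Neither gene passed in that limma fit, with Stfa2 at -2.12 (adjusted p = 0.0584) and Stfa2l1 at -2.56 (adjusted p = 0.076). In it 3 members were called. The male arrays alone set Rptor cKO array 2 against the 3 wild-type arrays, and the spread comes from the wild type only. There Stfa2 differed by -2.76 and Stfa2l1 by -3.28.

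Stfa3 (36450537 to 36455392) encodes stefin A3 and had the smallest adjusted p of the members. It read 10.25, 9.97 and 10.78 on Rptor cKO arrays 1 to 3, against 12.08, 11.80 and 12.01 on wild-type arrays 4 to 6. The groups were 1.02 apart at their nearest, and the spread within each was small (SD 0.41 in Rptor cKO and 0.15 in wild type, n = 3 each). The difference was -1.63 (SE 0.19, adjusted p = 0.00313), a 3.10-fold fall.

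Stfa1 (36277148 to 36285371) encodes stefin A1. It read 9.90, 9.63 and 10.45 on Rptor cKO arrays 1 to 3, against 11.31, 11.06 and 11.29 on wild-type arrays 4 to 6. The difference was -1.23 (SE 0.19, adjusted p = 0.00829), a 2.34-fold fall. For both Stfa1 and Stfa3 array 2 was the lowest of the Rptor cKO arrays and array 3 the highest.

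Among the stefin A genes Stfa1 ran closest to Stfa3 and Stfa2 to Stfa2l1 from array to array, while every pair had a Pearson r of 0.96 to 1.0 over the 6 arrays, of which the difference between the groups is part. Within an array, the Stfa1 value minus the Stfa3 value had an SD of 0.011 over the Rptor cKO arrays and 0.024 over the wild-type arrays, far below the SD of either gene, and its mean was 0.40 higher in Rptor cKO (p = 0.1, exact permutation test, the smallest that test can give). Stfa2 minus Stfa2l1 had an SD of 0.34 in Rptor cKO and 0.10 in wild type. Between Stfa1 and Stfa2l1 the SD was 0.89 in Rptor cKO and 0.38 in wild type. Close paralogs can share probes, the probe sequences were not used here, and how much of a value comes from a neighbour's RNA was not tested.

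**Figure D2:**
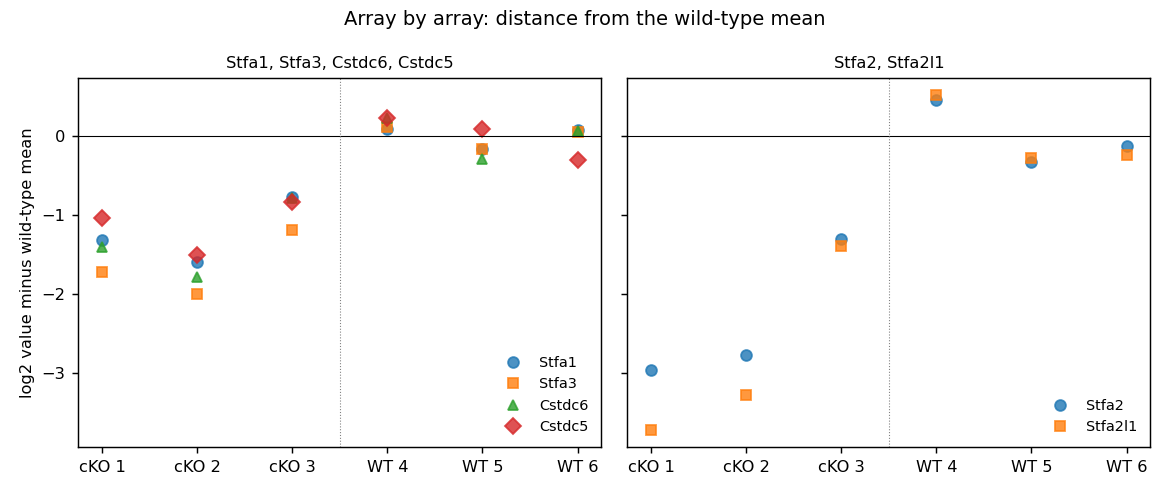
Log2 value of each gene on each array minus its mean over the 3 wild-type arrays, for Stfa1, Stfa3 and the neighbouring genes Cstdc6 and Cstdc5 on the left and for Stfa2 and Stfa2l1 on the right. Rptor cKO array 3 lies nearest to the wild type in both panels, and array 2 lies lowest on the left only.

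Cst3 (chromosome 2, 148871722 to 148875512) encodes cystatin C, a secreted inhibitor made by most cells and abundant in macrophages and dendritic cells. It read 9.10, 9.33 and 9.57 on Rptor cKO arrays 1 to 3, against 10.10, 10.31 and 10.18 on wild-type arrays 4 to 6. The groups did not overlap and lay 0.53 apart. The difference was -0.86 (SE 0.13, adjusted p = 0.00725), a 1.82-fold fall.

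Cstb (chromosome 10, 78425670 to 78427622) encodes stefin B, which is found in the cytosol and nucleus of most cells and whose loss causes a progressive myoclonus epilepsy in humans. It read 10.22, 10.39 and 10.69 on Rptor cKO arrays 1 to 3, against 11.30, 10.77 and 10.58 on wild-type arrays 4 to 6. The groups overlapped, since wild-type array 6 lay below Rptor cKO array 3. The difference of -0.45 did not pass the test (95% interval -0.90 to -0.0042, adjusted p = 0.21), so a fall of up to 0.90 was within the interval.

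Cst6 (chromosome 19, 5344705 to 5349574) encodes cystatin M/E, which restrains cathepsin L and legumain in the upper epidermis and hair follicle. It read 5.82, 6.35 and 6.58 on Rptor cKO arrays 1 to 3, against 6.58, 6.29 and 6.21 on wild-type arrays 4 to 6. Array 1 was lowest, and the other Rptor cKO arrays lay within or at the edge of the wild-type range. The difference of -0.11 did not pass (95% interval -0.55 to 0.33, adjusted p = 0.792).

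The size of the change was compared between members by their within-array differences. The change of Stfa2l1 minus that of Cst6 was -2.69, and minus that of Cstb -2.35, and the change of Stfa3 minus that of Cst6 was -1.52. Among the 21 pairs of members, 15 had the smallest p that an exact two-sided permutation test of 3 against 3 arrays can give, 0.1, which became 0.14 after Benjamini-Hochberg adjustment over the pairs. None passed 0.05, which this permutation test cannot reach with 3 against 3 arrays, so differences in size between members are given as estimates. Cstb and Cst6 differed from each other by -0.35 in their change (p = 0.2, exact permutation test).

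Some of the other genes in the chromosome 16 cluster were lower too. Of 6 further stefin A-like and cystatin domain genes there that had a probe set of their own, 4 were called lower and none higher. The 4 were Cstdc6, Cstdc5, Cstdc4 and Cstdc3, where 5.95% of all genes were called lower. On all 6 probe sets the Rptor cKO arrays lay below the wild-type arrays (lower without overlap: 12.5% of all genes). Cstdc6 read 8.93, 8.56 and 9.55 on Rptor cKO arrays 1 to 3, against 10.57, 10.05 and 10.40 on wild-type arrays 4 to 6, a fall of 2.51-fold (-1.33, SE 0.24, adjusted p = 0.013). Cstdc5 fell 2.19-fold (-1.13, SE 0.19, adjusted p = 0.0106). Both had array 2 as the lowest of the Rptor cKO arrays, as had Stfa1 and Stfa3.

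Cstdc4 fell by 0.72 (SE 0.18, adjusted p = 0.0438). On Rptor cKO array 1 it read 3.89, under that array's negative control median of 4.11. With the median as the floor the fall was 1.56-fold. Cstdc3 passed narrowly (adjusted p = 0.0474), but all 6 of its values were below the array's negative control median, which was 3.81 to 4.11, so no size of change is given. Csta2 and Csta3 did not pass. Csta2 differed by -0.64 (SE 0.18, adjusted p = 0.0616), and on Rptor cKO array 1 it read 3.73, also under the negative control median. Csta3 read 7.30, 7.13 and 7.26 on Rptor cKO arrays 1 to 3, against 7.43, 7.37 and 7.48 on wild-type arrays 4 to 6, a difference of -0.20 (adjusted p = 0.243). The promoter of Csta3 shares ACCTTTAAAACCC and ACTCAGCATTTCC with the 4 stefin A genes.

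A probe set that the platform names both Csta and Csta1, for a single Entrez ID, read 4.67, 4.90 and 5.59 on Rptor cKO arrays 1 to 3, against 8.12, 6.66 and 6.94 on wild-type arrays 4 to 6. RefSeq gives Csta as an older symbol of Csta1, the gene at the start of the cluster. The groups were 1.07 apart, and the probe set was 4.54-fold lower (-2.18, SE 0.38). Its adjusted p of 0.0209 comes from a limma fit of all 65956 probe sets, in which 4.58% were called.

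**Figure D3:**
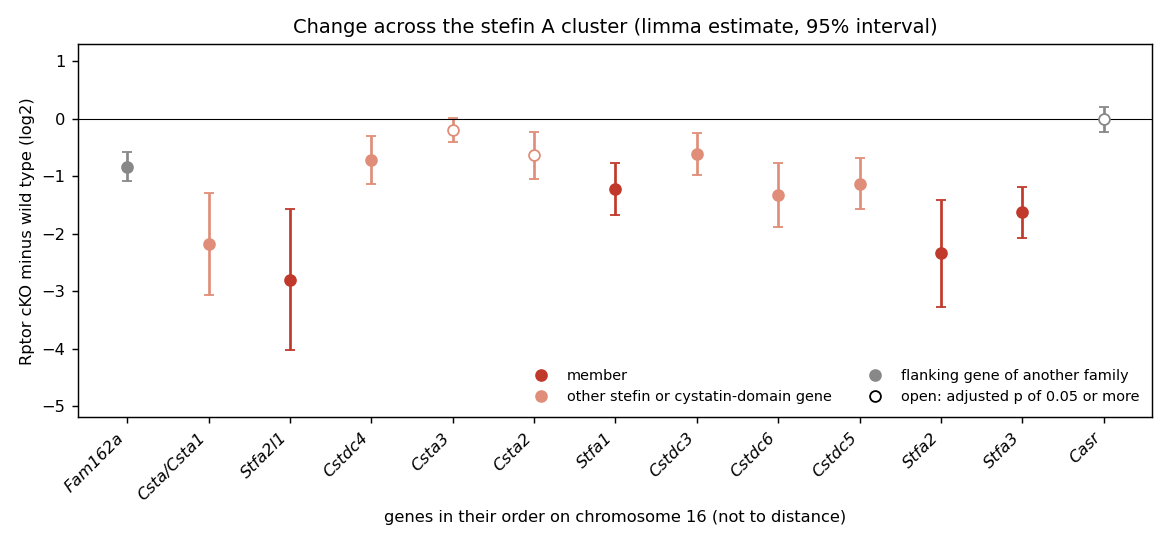
Difference between Rptor cKO and wild type (log2, limma estimate with its 95% interval) for stefin and cystatin domain genes in their order on chromosome 16, with Fam162a and Casr as flanking genes. Stfa2l1, Stfa2 and the Csta/Csta1 probe set lie lowest, Csta3 lies near 0, and open points did not pass the test. Cstdc3 was below the negative control median on all 6 arrays.

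The genes in and around the cluster that are not listed as stefins or cystatins had a median difference of -0.052. Of 18 such genes in the cluster or within 200 kb of its outer stefin A genes, 1 was called lower and none higher. Over all genes 5.95% were called lower. An unadjusted limma p under 0.05 was found for 4 of the 18, against 7013 of 30142 genes. For 3 of the 18 all Rptor cKO arrays lay below the wild-type arrays, against 12.5% of all genes. Of the 18, 8 were dimmer than the negative control median throughout, and those between Stfa2l1 and Stfa3 were all predicted genes. The gene that fell was Fam162a, a mitochondrial protein induced by hypoxia (-0.84, SE 0.11, adjusted p = 0.00455). Inside the cluster Gm24218, a predicted gene, read 3.30, 2.95 and 2.87 on Rptor cKO arrays 1 to 3, all under the negative control median, against 5.24, 3.51 and 4.08 on wild-type arrays 4 to 6 (adjusted p = 0.0811). Parp9 differed by -0.29 (SE 0.088, adjusted p = 0.0815), with 2 Rptor cKO arrays under that median. Ccdc58, next to Fam162a, differed by -0.033 (SE 0.14), and Casr, the calcium receptor beyond Stfa3, by -0.0079 (SE 0.10).

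Of the cystatin family genes measured outside the cluster, Cst3 alone passed the test. Of the 14 that are not members, Fetub, Ahsg, Kng1, Kng2 and Hrg also lie on chromosome 16. None of the 14 was called by limma, and 0 had an unadjusted p under 0.05, against 7013 of 30142 genes. Their median difference was 0.076, and 10 of the 14 were dimmer than the negative control median throughout. They include Cst7, the cystatin F of immune cells, at 0.18 (adjusted p = 0.289), and Ahsg, the plasma protein fetuin-A, at 0.61 (SE 0.30, adjusted p = 0.275). Inhibitors of cathepsins from other families did not pass either: Ctla2a differed by 0.46, Ctla2b by 0.25 and Serpinb13 by -0.17. Ctla2b was dimmer than the negative control median throughout, and Serpinb13 was so on 3 Rptor cKO and 2 wild-type arrays. The values of Ctla2b and Serpinb13 can thus show little of a change. Ctla2a read 5.24, 4.17 and 3.98 on Rptor cKO arrays 1 to 3, against 4.0, 4.05 and 3.95 on wild-type arrays 4 to 6.

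Among the proteases these inhibitors bind, 3 of 11 papain-like cathepsins and legumain were called lower and none higher, with a median difference of -0.46. Over all genes 5.95% were called lower and 3.63% higher. Ctsh, an aminopeptidase, read 6.95, 7.15 and 7.52 on Rptor cKO arrays 1 to 3, against 8.94, 8.26 and 7.99 on wild-type arrays 4 to 6. The 3 Rptor cKO arrays were all lower, and the difference was -1.19 (SE 0.24, adjusted p = 0.0197). Ctss, the cathepsin of antigen-presenting cells, fell by 0.88 (SE 0.18), and Ctsc, the activator of granule serine proteases, by 0.75 (SE 0.13).

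Of the targets of Cst6, Ctsl read 7.50, 7.87 and 8.14 on Rptor cKO arrays 1 to 3, against 8.98, 8.0 and 7.91 on wild-type arrays 4 to 6. The groups overlapped, and the difference of -0.46 (SE 0.28) did not pass (adjusted p = 0.381). Lgmn, legumain, differed by -0.61 (SE 0.20, adjusted p = 0.109), and Ctsb by -0.45 (SE 0.16, adjusted p = 0.132). Ctsz was higher on all 3 Rptor cKO arrays, by 0.33 (SE 0.095), and did not pass (adjusted p = 0.0674).

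**Figure D4:**
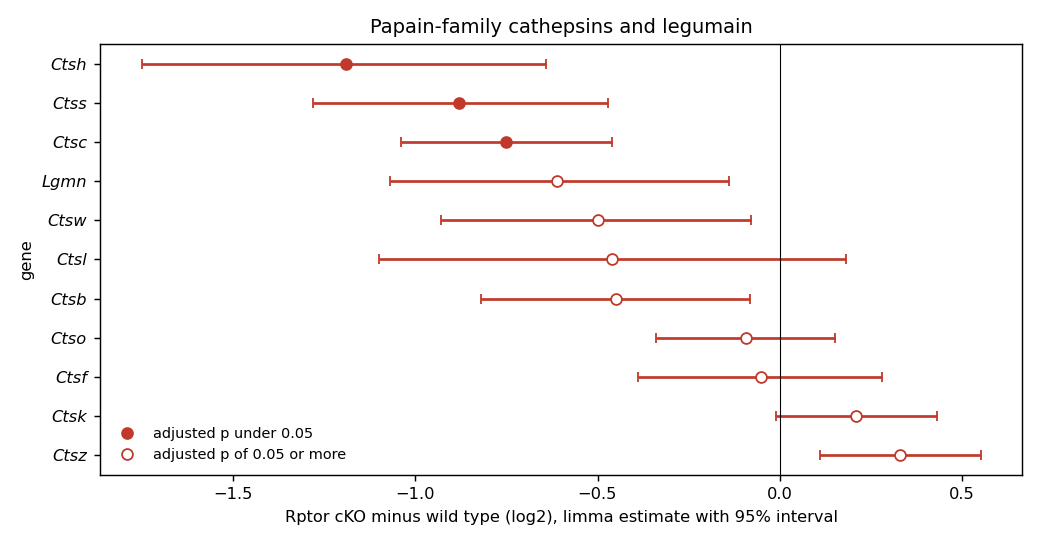
Difference between Rptor cKO and wild type (log2, limma estimate with its 95% interval) for 11 cysteine proteases. Ctsh, Ctss and Ctsc lie below 0 and passed the test, and Ctsz has the highest estimate, 0.33.

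Transglutaminases crosslink the cornified envelope, of which stefin A becomes a part, and cathepsin L is known to cleave and activate Tgm3. Of 3 measured, Tgm3 fell by 2.91 (SE 0.26, adjusted p = 0.0012) and Tgm5 by 1.40 (SE 0.17, adjusted p = 0.00369). Tgm1 differed by -0.87 (SE 0.28, adjusted p = 0.0963).

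The genes whose values ran most like those of a member were sought by Pearson's r over the 6 arrays, among 14783 genes brighter than the negative controls. The difference between the groups is part of each r, so many genes score high: from 528 to 729 genes had an r over 0.95 with a stefin A gene, 544 with Cst3, 112 with Cstb and 13 with Cst6. Nearest to Stfa1 were Sdr16c5, a retinol dehydrogenase (r = 0.9988), Adtrp, which cleaves hydroxy fatty acid esters of lipids (0.9984), and Serpinb5, maspin (0.9981). Nearest to Stfa3 were Arih2, a ubiquitin ligase (0.9988), Skint2, of the keratinocyte Skint family (0.9988), and Gng12, a G protein subunit (0.9981).

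Stfa2 and Stfa2l1 had the same nearest gene, Gltp, the glycolipid transfer protein (r = 0.9986 and 0.9987). Aldh3b2, an aldehyde dehydrogenase (0.9981), and Bspry (0.9977) followed for Stfa2, and Bspry and Stfa2 itself (both 0.9973) for Stfa2l1. Nearest to Cst3 were Il17rc, an interleukin 17 receptor subunit (0.9991), Anpep, aminopeptidase N (0.9986), and Mvk, mevalonate kinase of cholesterol synthesis (0.9974). Sgpp2, Atoh8 and Gtf2f1 were nearest to Cstb, with r from 0.9954 to 0.9963. Cst6 had the least close neighbours, Tubb4a, Wbscr25 and Pram1, from 0.9859 to 0.9919.

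Mouse stefin A genes are also strongly expressed in neutrophils, and Cst3 and Ctss in macrophages, so the markers of these cells are given beside the falls. Of 13 neutrophil markers 1 was called lower, Itgam, an integrin that macrophages share (-0.76, SE 0.12), against 5.95% of all genes. The summed level of the list was 8.06 to 8.14 in Rptor cKO and 8.09 to 8.17 in wild type. Ngp, Retnlg and Mmp8 were dimmer than the negative control median throughout, and Ly6g at 4.00 to 4.33 in Rptor cKO and 3.87 to 4.03 in wild type was near it. Mpo, Elane, Ltf, Csf3r and Trem1 read 3.77 to 4.64 over the 6 arrays. Most of the list thus lay under or little above that median, so its sum can show little of how many neutrophils were present.

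Of 10 macrophage and Langerhans cell markers 3 were called lower and none higher: Csf1r (-0.64), C1qb (-0.88) and Ptprc. Over all genes 5.95% were called lower. The other 7 markers did not pass and were mixed in direction: Cd68 (-0.21), Adgre1 (-0.33), C1qa (-0.38), C1qc (-0.37), Mrc1 (0.14), Cd207 (0.12) and Lyz2 (0.20). The Ptprc values were under the negative control median on all 3 Rptor cKO arrays and on 1 wild-type array, so it was at least 1.05-fold lower, with the median as the floor (adjusted p = 0.015). The summed level of that list was 8.24 to 8.56 in Rptor cKO and 8.70 to 8.81 in wild type. Fibroblast markers went the other way, with 4 of 5 called higher, against 3.63% of all genes. Their summed level was 9.39 to 9.76 in Rptor cKO and 8.63 to 8.76 in wild type. The summed level of the 7 epidermal markers was 13.24 to 14.17 in Rptor cKO and 14.59 to 14.95 in wild type. The part of these shifts in the stefin and cystatin results was not tested.

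Of 5 endothelial markers 1 was called higher, and of 5 Merkel cell markers 1, against 3.63% of all genes. Of 5 melanocyte markers and the single erythroid marker measured none passed in limma. An unadjusted limma p under 0.05 was found for 2 melanocyte markers, against 7013 of 30142 genes.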

How the data were processed

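The authors deposited log2 values per probe set, made with RMA and Partek on build mm10, per the submitters' processing notes, which name no versions. Quantile normalization, a usual step of RMA, makes array distributions alike, so a general change in RNA per cell cannot be seen. No source used here gives array batches, so none was tested.

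Of 72688 probe sets, 6732 were controls, and 30604 named a single symbol on the platform. Symbols were updated by Entrez ID through RefSeq (GRCm38.p6, the assembly of mm10), and per gene the probe set with the highest mean was kept, giving 30142 genes. Group differences were fitted in limma 3.58.1 (lmFit, eBayes; R 4.3.3) on all 6 arrays, two-sided, with Benjamini-Hochberg adjustment over all genes and a threshold of 0.05. The precision is limited by 3 arrays per group, and p-values measure the spread between these littermates. SE is the moderated standard error. A summed level is log2 of the sum of a list's linear values. Promoters were aligned globally with Biopython 1.88. The fit was tested on simulated data.

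The members and lists were chosen with earlier results of these data known. Named genes are the members, the lists of family genes, proteases, transglutaminases and markers, cluster genes, and the 3 nearest genes by r, without predicted genes or RIKEN clones.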

Additional observations from a re-analysis of the deposited data

How the results depend on the processing

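Each member was refitted with array medians subtracted, quantile normalization, an intensity trend, no variance moderation, dim genes left out, all probe sets tested, the male arrays alone, and each array left out. Of 91 refits, 89 gave a difference below 0 and 82 kept both direction and call. A kept call includes Cstb and Cst6 staying uncalled. An intensity trend, no variance moderation, dim genes left out and all probe sets tested cannot alter the difference itself. The sign in those refits was therefore fixed, and only the call could change. Without variance moderation 0 members passed, and 8 genes were called in all. At an unadjusted p under 0.05 that fit had 5 of 7 members and 5796 of 30142 genes. The 5 were Stfa1 -1.23, Stfa2 -2.34, Stfa3 -1.63, Stfa2l1 -2.80 and Cst3 -0.86, with adjusted p from 0.116 to 0.185. With an array left out the difference ran from -1.45 to -1.05 for Stfa1, -2.86 to -2.03 for Stfa2, -1.85 to -1.45 for Stfa3, -3.50 to -2.34 for Stfa2l1, -0.98 to -0.74 for Cst3, -0.61 to -0.24 for Cstb and -0.27 to 0.11 for Cst6. Stfa2 and Stfa2l1 lost their call without Rptor cKO array 2. Cst6 turned to 0.11 without Rptor cKO array 1 and to 0.0024 without wild-type array 4. The members called were 3 to 5 and the genes called 886 to 2443, with 886 without Rptor cKO array 2, 1850 without Rptor cKO array 1 and 867 with the male arrays alone. The cause of these shifts was not tested, beyond the fewer arrays in such fits. The mean of both probe sets with platform symbol Stfa3, which averages Stfa3 with Cstdc5 and so is not counted here, differed by -1.38. No paired analysis was possible because the groups share no replicate numbers.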
